A study of Mus musculus with 48 samples.

Results

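The pappalysin Pappa and the other genes of the insulin-like growth factor (IGF) axis were followed across the mouse intestine in sorted enteroendocrine cells. The 10 genes are Pappa, Pappa2, Stc1, Stc2, Igfbp3, Igfbp4, Igfbp5, Igf2, Igf1r and Insr, and all 10 were found among the 53465 genes of the count table. Pappa was chosen on its measured level, because it holds over 1% of all counts. The remaining 9 were chosen by name as its paralog Pappa2, pappalysin inhibitors, IGF binding proteins, a ligand and receptors. The level of Pappa is therefore given as a description only. Differences between regions and between surgery groups, which the 1% limit does not use, were tested. The list itself was drawn up with earlier results of these data known, so counts of its members beside those of all genes are a description.

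IGFs signal through the IGF receptor and, for some isoforms, the insulin receptor, and most of the ligand in tissue is held by IGF binding proteins. Pappalysins are secreted metalloproteases that cut particular binding proteins and so free the ligand close to the cell surface, and stanniocalcins bind the pappalysins and block them. In the gut, IGF signalling is known for its trophic action on the epithelium.

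RNA was sequenced from cells of male C57BL6 mice carrying Neurod1-cre and an EYFP reporter, sorted as EYFP-positive, DAPI-negative and CD45-negative, from the top 5 cm of the small intestine (duodenum), its bottom 15 cm (ileum) and the colon with rectum (colon). Each region held 5 libraries of sham-operated mice fed ad libitum (S_al), 5 of sham-operated mice fed to match the weight of the operated group (S_wm) and 6 of mice after vertical sleeve gastrectomy (VSG), 48 libraries of 17 mice in all, with at most 1 library per mouse and region. By the sample labels VSG removed about 70% of the stomach, from lean mice of about 20 weeks, sham mice received a suture without resection, and all groups had the same analgesic, antibiotic and liquid diet around surgery and chow afterwards. VSG mice also received vitamin B12. Tissue was taken 6 weeks after surgery, after an overnight fast and about 15 min after 3 g/kg glucose by gavage in every group. The Cre marks every cell with a history of NeuroD1 expression, so a library pools all enteroendocrine types of 1 segment. Markers of other epithelial cells, given below, were also counted. A smaller share of a cell type cannot be told apart from less RNA per cell.

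Libraries held between 4648651 and 17182463 counts (median 6713018), and levels are given as CPM, counts scaled by TMM to a common library size of 1e6. All 10 enteroendocrine markers examined, Neurod1, Chga and Chgb among them, were detected in every region, and the summed duodenum, ileum and colon marker lists were each highest in the region they name. Some of these markers differed in level. From duodenum to colon mean Neurod1 was 660, 412 and 255 CPM, the granin Scg2 1092, 412 and 31.6 CPM and the prohormone convertase Pcsk1 935, 754 and 113 CPM. Scg3, Cpe, Syp and Pax6 also fell. Chga (17265, 17997 and 21929 CPM) and Insm1 (198, 201 and 234 CPM) rose instead, and Chgb was lowest in the ileum (31934, 25842 and 30204 CPM). Summed enteroendocrine markers had medians of 56854, 44411 and 47255 CPM from duodenum to colon. In the same order goblet markers had medians of 3425, 3809 and 9022 CPM and enterocyte markers 5477, 6886 and 395 CPM. Paneth markers had 282, 2475 and 17.5 CPM and colonocyte markers 39.5, 78.9 and 1303 CPM. The part of all these markers in the regional differences of the members was not tested. The duodenum library of S_wm mouse 27 stood apart, with 19.4% of its counts on the mitochondrial ribosomal RNA mt-Rnr2 against 5.73 to 11.7% in the other duodenum libraries and with 142 CPM of Neurod1 against 467 to 956 CPM. For S_al mouse 12 the segment codes of 2 libraries, ileum and colon, disagree with the tissue given for them. Its library labelled colon held 58.3 CPM of the distal gene Hoxb13 and its library labelled ileum held 0 counts, which goes with the tissue labels, and these were used.

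Pappa ranked 8 among all genes by mean share of counts in these total RNA libraries. It took 1.14% of all counts of the series, between 0.542% in the colon library of VSG mouse 18 (Wilson 95% interval 0.537 to 0.547%, 46017 of 8490816 counts) and 2.06% in the ileum library of VSG mouse 25 (2.04 to 2.07%), and 31 of 48 libraries lay above 1%. These intervals cover counting error only. Whether all counts assigned to Pappa come from its mRNA was not tested. The genes with a larger mean share were the ribosomal RNAs mt-Rnr2 and mt-Rnr1, the non-coding Gm42418, Gm26917 and Gm23935, and the granins Chgb and Chga. Gip, the incretin hormone, was the first gene outside the 1% limit at 0.842%. Per length of exon, Pappa averaged 1103 CPM per kb (SD 437, n = 48), which ranked 25 among 53360 genes.

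On the same scale of CPM per kb, the order of the other members was Igfbp4 (31.6), Pappa2 (15.99), Insr (9.76), Igf1r (3.64), Igfbp3 (2.43), Stc2 (0.808), Igf2 (0.135), Stc1 (0.0480) and Igfbp5 (0.0474). Pappa stood clear of Igfbp4 in every library, from 434 CPM per kb upwards against at most 81.7, while the range of every later member overlapped that of its neighbour over the 48 libraries. This separation of Pappa from Igfbp4, its substrate, held within each of the 3 regions. Pappa was chosen on its level, so the separation is a description only.

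The pappalysin genes lie on different chromosomes, Pappa at chr4:65124174-65357509 on the plus strand and Pappa2 at chr1:158711727-158980490 on the minus strand (GRCm38). They encode the same kind of catalytic centre, and the coding bases around the zinc-binding site are shown because they let the 2 paralogs be compared at the site that defines the enzyme family. The 33 bases of the site are in capitals, with 30 bases on either side, from exon 4 of the transcripts found to hold it, Pappa-201 (chr4:65180890-65180982) and Pappa2-202 (chr1:158857306-158857398).
Pappa: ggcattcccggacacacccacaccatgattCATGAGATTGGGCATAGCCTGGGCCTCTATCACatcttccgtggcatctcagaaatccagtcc
Pappa2: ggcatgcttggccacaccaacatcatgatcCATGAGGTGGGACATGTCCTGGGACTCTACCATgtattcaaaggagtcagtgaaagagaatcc
Within the site 25 of 33 bases are identical, and 64 of 93 in the whole stretch. The longest run that the 2 genes' transcripts share on the same strand is 21 bases and on opposite strands 24 bases, against sequenced reads of 50 bases, so that whole reads of 1 paralog have no exact match in the other. No other annotated gene overlaps the exons of Pappa.

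The mean level of Pappa was lowest in the duodenum. In the 16 duodenum libraries Pappa ranged from 6565 to 16757 CPM with a median of 9232, in the 16 ileum libraries from 7123 to 27481 CPM with a median of 11781, and in the 16 colon libraries from 4788 to 22646 CPM with a median of 13045. The 3 ranges overlapped widely, and the lowest library of all was a colon library. Averaged over the surgery groups, Pappa rose from duodenum to colon by 0.45 on the log2 scale (SE 0.18, edgeR quasi-likelihood test, adjusted p = 0.0336), and it was higher in the colon in 12 of 15 mice with both libraries. Over all genes tested, the median absolute log2 difference from duodenum to colon was 0.41. The call for Pappa was lost without S_al mouse 17 (0.42, edgeR adjusted p = 0.0541) or S_wm mouse 29 (0.39, edgeR adjusted p = 0.0922). It was also lost with no filter on low counts (edgeR adjusted p = 0.102) and with the i5 library index as a covariate (0.52, edgeR adjusted p = 0.353). From duodenum to ileum the difference in Pappa was again 0.45 (SE 0.18, edgeR adjusted p = 0.0504), with 11 of 15 mice higher. It passed the threshold in the paired fit with the mouse as a block (0.36, edgeR adjusted p = 0.0381) and without the duodenum library of mouse 27 (0.53, edgeR adjusted p = 0.0164). That library had the highest Pappa CPM of its region. By share of counts it held 1.03% Pappa, within the 0.730 to 1.36% of the other duodenum libraries. The duodenum to ileum difference also passed with DESeq2 (adjusted p = 0.0321), with limma voom, with a stricter filter and without all libraries of mouse 12, 18, 19 or 27 (0.46 to 0.55). Colon and ileum differed by 0.00 (SE 0.18, edgeR adjusted p = 0.994).

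Over the 48 libraries, which come from 17 mice, the genes whose log2 CPM was most like that of Pappa among 10620 genes were the antisense transcript Gm14236 (Pearson r = 0.965, Spearman rho = 0.956), Vsig8 (r = 0.900), the short annotated miRNA gene Gm24245 (r = 0.858), Ankrd60 (r = 0.856) and Mroh6 (r = 0.821). After subtraction of the 9 group means the first 4 were the same, with r = 0.962 for Gm14236 (rho = 0.963) and 0.850 to 0.901 for the other 3, and Zfp654 was the fifth (r = 0.847), where 99% of genes lay below 0.667. Gm14236 was itself abundant, between 4126 and 15289 CPM, and the point cloud of both genes is close to a line. The exons of Pappa share no run longer than 13 bases with the transcripts of these 6 genes on either strand. No such comparison was made with the ribosomal genes.

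Ribosomal RNA moved with Pappa. Of the 6 ribosomal and ribosomal-like genes listed, 5 had counts and AY036118 had 0 in every library, and their summed level correlated with that of Pappa at r = 0.690 (0.644 after subtraction of the group means, n = 48). That sum ranged from 99509 to 538857 CPM in the duodenum, 114463 to 404449 CPM in the ileum and 163277 to 364068 CPM in the colon. Its medians of 142741, 231122 and 239986 CPM had the same order of regions as the medians of Pappa. Mean Pappa was nearly equal in ileum (13427 CPM) and colon (13341 CPM). Of the summed genes, Gm42418, Gm26917 and Lars2 had their highest median in the ileum, and mt-Rnr1 and mt-Rnr2 in the colon. Chgb went the other way (r = -0.534, and -0.549 within groups), as did Scg3 (-0.479 and -0.550), both proteins of the secretory granule, and the summed enteroendocrine markers (-0.486 and -0.515). The neural and glial list (-0.490 and -0.363) and, within groups, the endothelial list (-0.433) also went the other way. The summed goblet markers (0.391 and 0.456), the colonocyte markers (0.322 and 0.462) and, within groups, the enterocyte markers (0.467) rose with Pappa. Their part in the regional difference of Pappa was not tested.

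**Figure D1:**
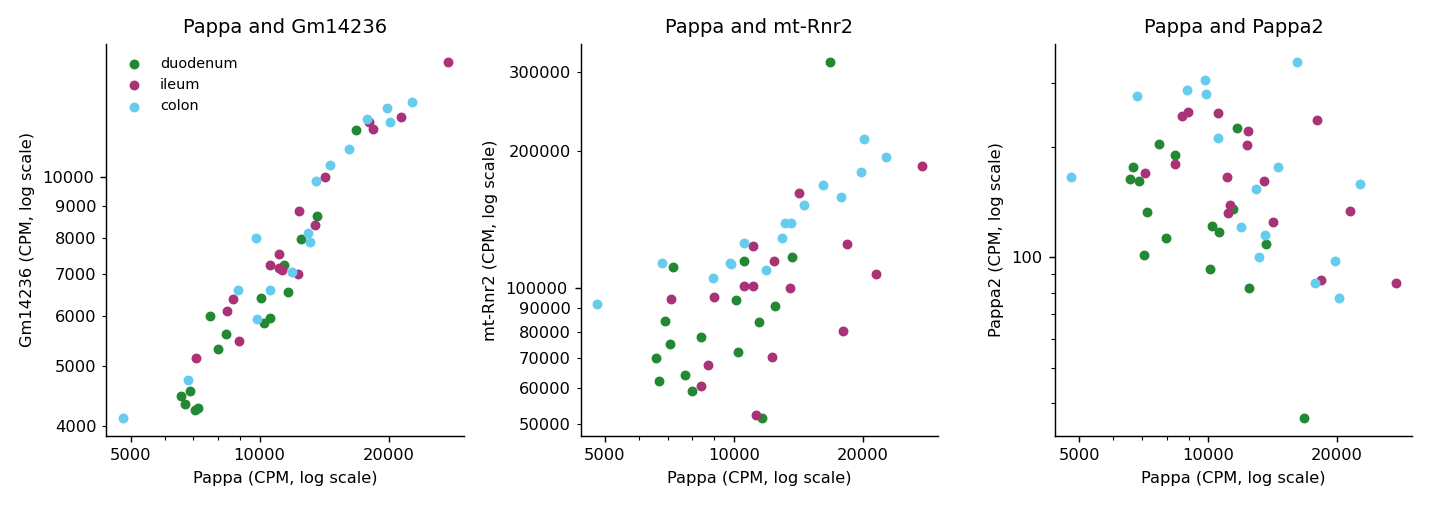
Level of Gm14236 (left), mt-Rnr2 (middle) and Pappa2 (right) against that of Pappa, in CPM on log axes, with 1 point per library coloured by region (48 libraries). The points of Gm14236 lie near a line (r = 0.965), those of mt-Rnr2 scatter upwards (r = 0.632) and those of Pappa2 scatter downwards (r = -0.379).

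Pappa2, the pappalysin that cuts Igfbp3 and Igfbp5, was present in every library. It ranged from 36.4 to 226 CPM in the duodenum (median 127), 85.2 to 249 CPM in the ileum (median 168) and 77.7 to 342 CPM in the colon (median 162). The duodenum library of mouse 27 was the lowest of all, and the regions overlapped over most of their ranges. The difference from duodenum to colon was 0.44 on the log2 scale (SE 0.20) and missed the threshold (edgeR adjusted p = 0.0617), but passed it in the paired fit with the mouse as a block (0.49, edgeR adjusted p = 0.0412), with DESeq2 (adjusted p = 0.0347) and without mouse 16, 22, 27 or 30 (0.45 to 0.57). Duodenum and ileum differed by 0.36 (SE 0.20, edgeR adjusted p = 0.173), and ileum and colon by 0.08 (SE 0.20, edgeR adjusted p = 0.772). Across libraries Pappa2 and Pappa went opposite ways, with r = -0.379 over the 48 libraries and -0.530 after subtraction of the group means.

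Of the 10 members, 8 passed the filter on low counts and could be tested between regions. Igfbp5 and Stc1 did not pass, and Igf2 and Stc2 passed through the region in which they are high, so that a difference was to be found for them. From duodenum to ileum 3 of 8 were called and all 3 were higher, against 33.8% of the 15126 genes tested. From duodenum to colon 7 of 8 were called, 6 higher and 1 lower, against 55.0% of all genes tested, and from ileum to colon 6 of 8, 3 higher and 3 lower, against 49.2%. Without Igf2 and Stc2, the counts were 2, 5 and 4 of 6 in the same order. The median log2 difference of the 8 members was 0.40, 0.59 and 0.04 in these comparisons, against 0.00, -0.01 and -0.01 over all genes tested. Without Igf2 and Stc2 the median of the members was 0.40, 0.51 and 0.04.

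**Figure D2:**
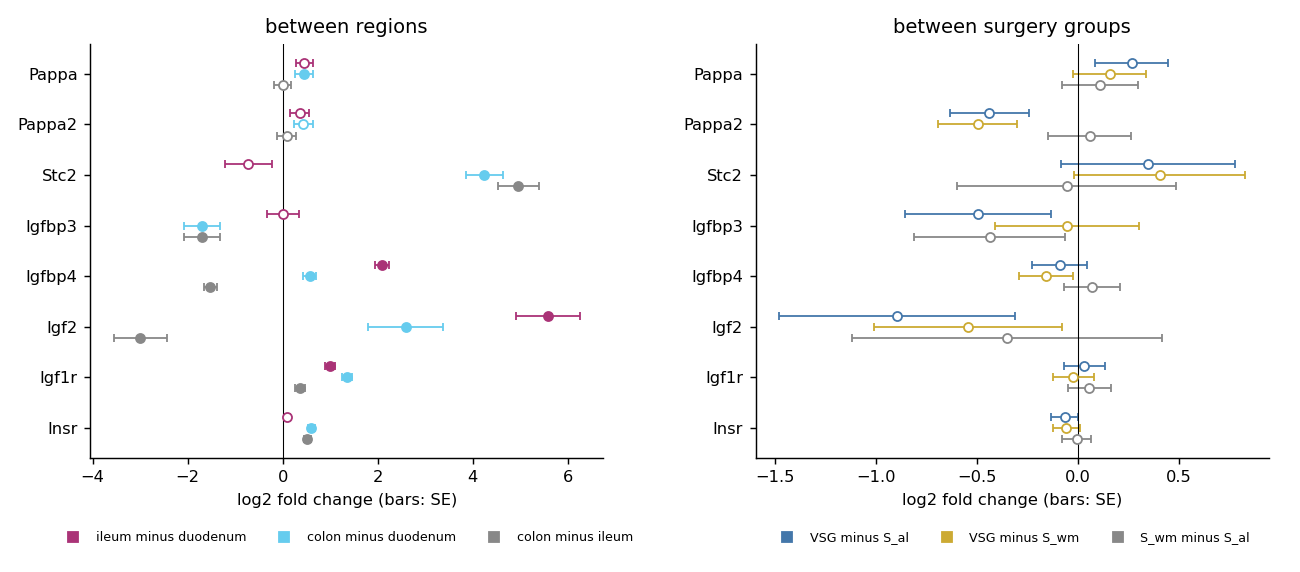
Fitted log2 fold changes of the 8 tested members with their standard errors, between regions (left, averaged over surgery groups) and between surgery groups (right, averaged over regions). Filled points are adjusted p under 0.05 (edgeR), open points are not. Stc2, Igf2 and Igfbp4 span the largest regional differences, and on the right no point is filled.

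The inhibitor Stc2 was the member with the largest difference in the colon. Stanniocalcin-2 binds Pappa covalently and blocks it. Stc2 ranged from 0 to 1.70 CPM in the duodenum (median 0.500), from 0 to 1.65 CPM in the ileum (median 0.157) and from 5.72 to 22.5 CPM in the colon (median 10.6). Every colon library lay above every library of the small intestine, with 1238 counts over the colon against 81 over the duodenum and 39 over the ileum. The colon mean was 18.6 times that of the duodenum and 28.5 times that of the ileum, and the fitted differences were 4.24 (SE 0.39, edgeR adjusted p = 3.51e-13) and 4.96 (SE 0.43, edgeR adjusted p = 8.1e-14) on the log2 scale. The ileum lay 0.72 below the duodenum, which did not pass the threshold (SE 0.50, edgeR adjusted p = 0.276). Without S_al mouse 32, the sole S_al mouse with Stc2 counts in the ileum, that difference was -2.08 (edgeR adjusted p = 0.0138). The S_al ileum then held no Stc2 count, so that this value depends on the prior count.

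Stc1, the other stanniocalcin, was close to the detection limit. It had 69 counts in all, 53 of them in the ileum, and 33 of 48 libraries were at 0, among them all S_al and all VSG duodenum libraries. A group with no count allows up to 0.0603 CPM (S_al) or 0.0590 CPM (VSG), the level that 3 counts over the group would give. Stc1 was left out by the filter. In the fit with no filter the ileum lay above the duodenum by 3.40 (SE 0.78, edgeR adjusted p = 0.000524) and the colon below the ileum (-2.64, SE 0.82, edgeR adjusted p = 0.011), values that depend on the prior count. In the ileum it reached 2.55 CPM in S_wm mouse 27 and had a count in 9 of 16 libraries. The antisense gene Gm41192, with 49 counts, shares 229 exon bases with Stc1, so that the counts of both are uncertain where strand was not used.

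The promoter of Stc2 is shown because this gene separated the colon from the small intestine, as the 250 bases before the RefSeq start (GRCm38.p6, chr11:31370062-31370311, minus strand), followed by that of Igfbp4, the member that separated the ileum (chr11:99040994-99041243, plus strand). Capitals mark matches on either strand to 5 motifs of promoters and gut transcription factors, which are the core promoter letters TATAAA, the caudal-type letters TTTATG, the Sp-factor letters GGGCGG, the zinc-finger factor letters AGATAA and the helix-loop-helix letters CACGTG.
Stc2: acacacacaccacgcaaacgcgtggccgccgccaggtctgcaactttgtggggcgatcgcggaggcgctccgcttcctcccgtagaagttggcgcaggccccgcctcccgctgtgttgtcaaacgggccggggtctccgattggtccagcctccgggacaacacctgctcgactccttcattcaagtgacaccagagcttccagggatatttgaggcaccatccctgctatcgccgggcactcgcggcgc
Igfbp4: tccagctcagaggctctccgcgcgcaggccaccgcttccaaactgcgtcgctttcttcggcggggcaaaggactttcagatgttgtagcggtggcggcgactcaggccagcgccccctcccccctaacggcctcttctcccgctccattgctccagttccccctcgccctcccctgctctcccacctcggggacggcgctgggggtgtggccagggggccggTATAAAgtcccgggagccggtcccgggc
Both are rich in CG dinucleotides, with 24 in Stc2 and 22 in Igfbp4 against a median of 6 over 32851 mouse promoters of this length. The Igfbp4 sequence holds TATAAA starting 28 bases before the start, letters found in 12.4% of all promoters, and Stc2 holds none of the 5 motifs, of which TTTATG was found in 10.8%, GGGCGG in 32.7%, AGATAA in 9.99% and CACGTG in 6.02%. RefSeq entries were matched for 7 of the 10 members and not for Pappa, Stc1 and Insr.

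Igfbp4, the classical substrate of Pappa, was highest in the ileum. Its level ranged from 38.5 to 100 CPM in the duodenum (median 57.7), from 153 to 361 CPM in the ileum (median 266) and from 45.6 to 138 CPM in the colon (median 89.7). No ileum library overlapped with either other region, and the ileum was the highest in every mouse. The ileum mean was 4.24 times that of the duodenum (log2 2.09, SE 0.14, edgeR adjusted p = 2.46e-16) and 2.87 times that of the colon (colon minus ileum -1.52, SE 0.14, edgeR adjusted p = 5.96e-13). The colon in turn exceeded the duodenum by 0.57 (SE 0.14, edgeR adjusted p = 0.000467), in 14 of 15 mice.

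Igfbp3, a carrier of circulating IGF and substrate of Pappa2, fell in the colon. It ranged from 1.11 to 21.9 CPM in the duodenum (median 8.20), from 0 to 20.1 CPM in the ileum (median 8.61) and from 0.401 to 5.80 CPM in the colon (median 2.39). Colon values overlapped the lower part of both other ranges. The colon lay below the duodenum on the log2 scale (fold change -1.70, SE 0.38, edgeR adjusted p = 0.000172) and below the ileum by the same amount (-1.70, SE 0.38, edgeR adjusted p = 0.000225), while ileum and duodenum differed by 0.00 (SE 0.34, edgeR adjusted p = 1). Like Pappa2, it went against Pappa across libraries (r = -0.543, and -0.549 within groups).

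Igfbp5, a further pappalysin substrate, was left out by the filter. It had 101 counts over 27 of 48 libraries and at most 1.96 CPM, with means of 0.271 CPM in duodenum, 0.286 CPM in ileum and 0.297 CPM in colon libraries. In the fit with no filter its regional differences lay between -0.13 and 0.05 (SE 0.57 to 0.81, edgeR adjusted p = 1), so that a difference was not detectable at this depth.

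Igf2 was the only ligand among the members and was an ileal transcript at a low level. It ranged from 0.282 to 5.10 CPM over the 16 ileum libraries (median 1.79), with a count in every library and 204 counts in all. In the duodenum 3 of 16 libraries had a count, 4 counts in all and at most 0.144 CPM, and in the colon 6 of 16 libraries, 27 counts in all and at most 2.27 CPM. Ileum and duodenum did not overlap. All 6 VSG duodenum libraries were at 0, and against the level that 3 counts over that group would give, Igf2 in the VSG ileum was at least 31.1-fold higher. The fitted log2 differences, which for such counts depend on the prior count, were 5.58 from duodenum to ileum (SE 0.67, edgeR adjusted p = 7.53e-09), 2.58 from duodenum to colon (SE 0.79, edgeR adjusted p = 0.00485) and -3.00 from ileum to colon (SE 0.56, edgeR adjusted p = 1.8e-05). The second of these was not called without VSG mouse 11, which alone held the 7 VSG colon counts (1.41), or without S_wm mouse 21. Fibroblast markers, examined since stroma is a known source of Igf2, summed to at most 6.70 CPM in any library, with medians of 0.425, 1.23 and 1.39 CPM from duodenum to colon, and their part in the result was not tested. Gm49394, with 24 counts on the same strand, shares 3596 exon bases with Igf2, and the antisense Igf2os, with 32 counts, shares 98, so the split of reads between these genes is uncertain. Igf1, the second ligand, had a mean of 0.624 CPM over all libraries.

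Both receptors were highest in the colon. Igf1r, which binds both IGFs, ranged from 19.6 to 46.8 CPM in the duodenum (median 32.6), from 46.4 to 90.4 CPM in the ileum (median 69.9) and from 66.02 to 108 CPM in the colon (median 82.7). Colon and duodenum did not overlap, and the highest duodenum library lay just above the lowest ileum library. All 15 mice were higher in ileum and colon than in duodenum (log2 0.99, SE 0.10, edgeR adjusted p = 7.6e-11, and 1.35, SE 0.10, edgeR adjusted p = 7.03e-16), and the step from ileum to colon was smaller (0.36, SE 0.10, edgeR adjusted p = 0.00267). Insr, the insulin receptor, ranged from 96.1 to 131 CPM in the duodenum (median 112), from 81.8 to 146 CPM in the ileum (median 121) and from 145 to 214 CPM in the colon (median 167). The difference between duodenum and ileum did not pass the threshold (0.08, SE 0.07, edgeR adjusted p = 0.362), whereas the colon exceeded both, by 0.60 (SE 0.07, edgeR adjusted p = 1.13e-10) and 0.52 (SE 0.07, edgeR adjusted p = 8.57e-09), in every mouse.

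**Figure D3:**
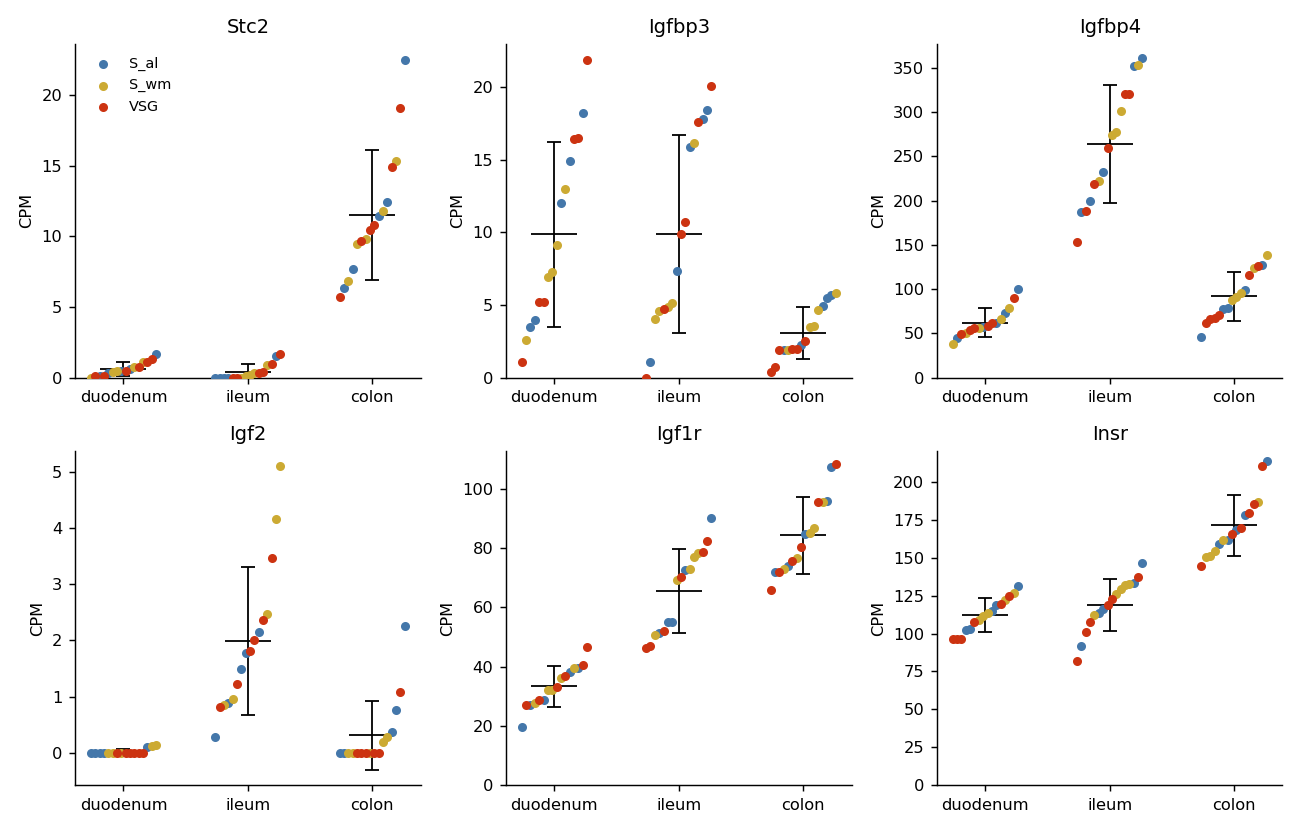
Levels of 6 members in CPM by region, with 1 point per library coloured by surgery group and the mean with SD over 16 libraries. Stc2 is high in the colon (5.72 to 22.5 CPM), Igfbp4 peaks in the ileum (153 to 361 CPM), Igf2 has a count in every ileum library, Igfbp3 is low in the colon, and Igf1r and Insr are highest there. The colours of the surgery groups are mostly mixed within a region. For Igfbp3 in the colon the VSG libraries lie low, at most 2.51 CPM against up to 5.72 CPM in S_al and 5.80 CPM in S_wm.

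The i5 library index, with 4 sequences in use, largely follows the region: all 12 libraries with D502 were duodenum and 11 of 12 with D504 were colon. With this index as a covariate, 3 members (Stc2, Igf1r and Insr) were called from duodenum to colon in place of 7. Of the other 4, Igfbp4 (0.57, edgeR adjusted p = 0.186), Igf2 (2.42, edgeR adjusted p = 0.217) and Pappa (0.52, edgeR adjusted p = 0.353) kept differences within 0.2 of those without the index, and Igfbp3 went to -0.99 (edgeR adjusted p = 0.44). From duodenum to ileum Pappa2 went from 0.36 to 1.22 and passed the threshold (edgeR adjusted p = 0.0412), and Igf2 did not pass (4.42, edgeR adjusted p = 0.0515). From ileum to colon Igf1r did not pass (0.34, edgeR adjusted p = 0.0534).

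No member differed between the surgery groups past the threshold. The main edgeR fit has no term for the mouse, so that in comparisons averaged over regions the libraries of 1 mouse count as separate. The SEs and p-values of these comparisons can therefore be too small. Averaged over the 3 regions, 0 of 8 tested members were called between VSG and S_al (0% of all genes tested were), 0 between VSG and S_wm (0.245% of all genes) and 0 between S_wm and S_al (0.0529%), these shares being those of edgeR. DESeq2 and limma voom also called 0 members, with 26, 102 and 13 of all genes called by DESeq2 and 0, 9 and 4 by voom. At an unadjusted p under 0.05 in edgeR there was 1 of 8 members, Pappa2, in each of the first 2 comparisons and 0 in the last, beside 5.53%, 9.92% and 6.39% of all genes. Within single regions 0 members were called in any of the 9 comparisons, where between 0% and 0.225% of all genes were. In the colon these shares were 0.0595% between VSG and S_wm and 0.0132% between S_wm and S_al. At an unadjusted p under 0.05 there was 1 of 8 members in the former (Pappa2, beside 3.65% of all genes), 1 of 8 in the latter (Igf2, beside 3.66%) and 0 in the other 7. The joint edgeR test of surgery by region called 0 members (0% of all genes, lowest unadjusted p of a member 0.0843, Igf2).

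Pappa was not distinguishable between the surgery groups. In the duodenum the S_al libraries held 6688, 6889, 8363, 10102 and 10229 CPM, the S_wm libraries 6565, 7196, 11422, 11658 and 16757 CPM, and the 6 VSG libraries 7085 to 13648 CPM with a median of 9284. In the ileum the S_al libraries held 7123, 8692, 11094, 17981 and 21429 CPM, the S_wm libraries 8975, 10564, 11108, 12393 and 13497 CPM, and the VSG libraries 8373 to 27481 CPM with a median of 13238. In the colon the S_al libraries held 6811, 9866, 12954, 13577 and 14588 CPM, the S_wm libraries 8925, 9807, 11912, 16149 and 20158 CPM, and the VSG libraries 4788 to 22646 CPM with a median of 15466. The surgery groups overlapped in every region, and the VSG colon held both the lowest and the highest library of its region. Averaged over regions, VSG lay above S_al by 0.26 (SE 0.18, edgeR adjusted p = 0.996) and above S_wm by 0.16 (SE 0.18, edgeR adjusted p = 0.842), the latter with a value of -0.01 without VSG mouse 25. VSG mouse 25 held 12484, 27481 and 22646 CPM from duodenum to colon, the highest library of the last 2 regions.

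**Figure D4:**
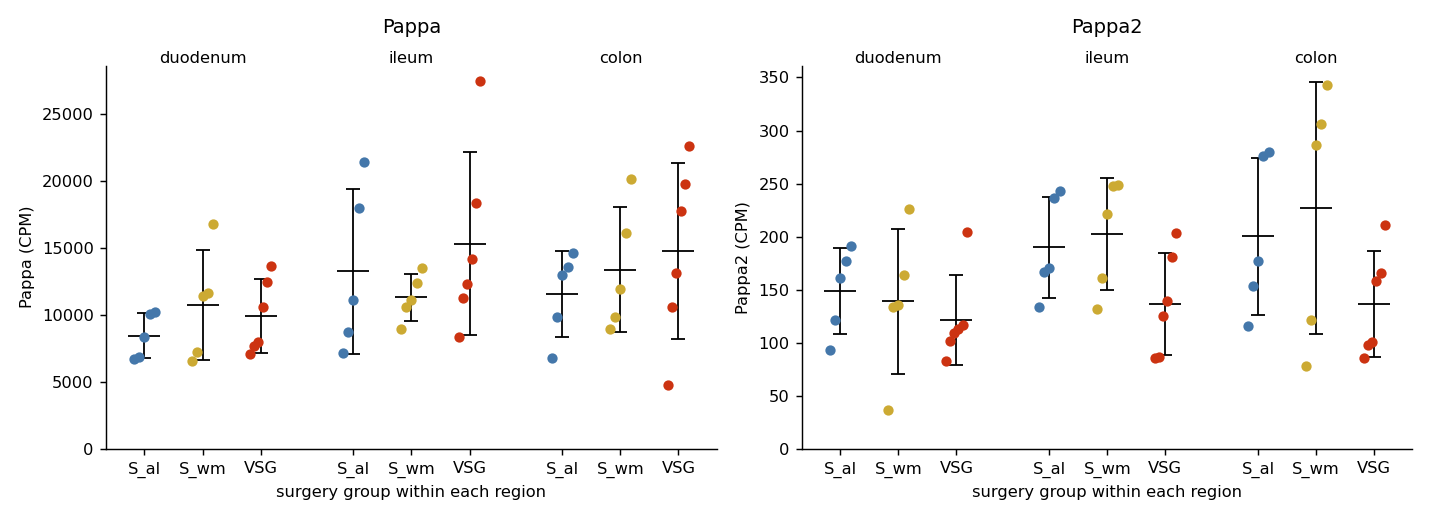
Level of Pappa (left, CPM) and Pappa2 (right, CPM) by region and surgery group, with 1 point per library (5 S_al, 5 S_wm, 6 VSG per region) and the mean with SD. All groups of a region overlap for both genes, and the VSG libraries of Pappa2 reach no higher than 211 CPM.

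Pappa2 had the lowest unadjusted p of the members between the surgery groups and did not pass the adjusted test. In the duodenum the S_al libraries held 92.7, 122, 161, 177 and 191 CPM, the S_wm libraries 36.4, 133, 136, 164 and 226 CPM, and the VSG libraries 82.8 to 204 CPM with a median of 111. In the ileum the S_al libraries held 134, 166, 170, 237 and 243 CPM, the S_wm libraries 132, 161, 221, 248 and 249 CPM, and the VSG libraries 85.2 to 203 CPM with a median of 132. In the colon the S_al libraries held 115, 154, 177, 276 and 279 CPM, the S_wm libraries 77.7, 121, 286, 306 and 342 CPM, and the VSG libraries 85.4 to 211 CPM with a median of 129. The median of VSG was the lowest of the 3 groups in each region, and the groups overlapped in each. Averaged over regions, VSG lay below S_al by 0.44 (fold change -0.44, SE 0.20, unadjusted p = 0.0304, edgeR adjusted p = 0.812) and below S_wm by 0.50 (fold change -0.50, SE 0.20, unadjusted p = 0.0152, edgeR adjusted p = 0.360). These values take the libraries of 1 mouse as separate, so that the SEs and p-values can be too small.

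Averaged over regions, the remaining tested members differed between VSG and the sham groups by less than 1 on the log2 scale, from -0.90 (Igf2, SE 0.58) to 0.40 (Stc2, SE 0.42), both at low counts. For the well-counted genes the SEs were smaller, in a fit that takes the libraries of 1 mouse as separate. Insr differed by -0.07 (SE 0.07) from S_al and by -0.06 (SE 0.07) from S_wm, Igf1r by 0.03 (SE 0.10) and -0.02 (SE 0.10), and Igfbp4 by -0.09 (SE 0.13) and -0.16 (SE 0.13), none with an edgeR adjusted p under 0.75. Single regions gave wider values for the genes of low count, as for Igf2 between VSG and S_wm in the duodenum (-2.03, SE 1.37) and between VSG and S_al in the colon (-1.66, SE 1.004). Igfbp3 differed by -0.50 (SE 0.36) and -0.06 (SE 0.35) over the regions. In the colon its differences were -1.38 (SE 0.70, edgeR adjusted p = 0.777) from S_al and -1.29 (SE 0.70, edgeR adjusted p = 1) from S_wm, whereas from S_wm they were 0.50 in the duodenum and 0.63 in the ileum. The joint test of surgery by region did not call Igfbp3 (edgeR adjusted p = 1, unadjusted 0.258). In the colon, where Igfbp3 was lowest, the S_al libraries held up to 5.72 CPM, the S_wm libraries up to 5.80 CPM and the VSG libraries up to 2.51 CPM, with overlapping ranges.

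The wider pathway list held 48 further genes, of which 35 passed the filter. Between regions 16 were called from duodenum to ileum (6 higher, 10 lower), 28 from duodenum to colon (14 and 14) and 26 from ileum to colon (15 and 11). These are 45.7%, 80% and 74.3% of the 35, beside 33.8%, 55.0% and 49.2% of all genes tested. The 35 include Irs4, which passed the filter through the duodenum, where it is high, so that a difference was to be found for it. Counts without such genes were not made. The list held genes at very different places along the signalling route, described here by the rule of lowest p.

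Binding proteins and proteases outside the members had their own regional order. Igfbp2 was a duodenal transcript, with means of 17.8, 2.16 and 0.199 CPM from duodenum to colon (colon minus duodenum -6.62, SE 0.45, edgeR adjusted p = 3.6e-17). Igfbp7 was nearly absent from the ileum, with means of 6.13, 0.561 and 14.7 CPM (ileum minus duodenum -3.34, SE 0.28, edgeR adjusted p = 6.32e-14, and colon minus ileum 4.62, SE 0.28). The protease Mmp7, which cuts several binding proteins and is known from Paneth cells, peaked in the ileum at 67.8 CPM against 11.1 CPM in the duodenum and 0.659 CPM in the colon. Paneth markers followed the same order, with summed medians of 282, 2475 and 17.5 CPM and all 5 listed genes detected in each region, and their part in the Mmp7 difference was not tested. Cathepsin D (Ctsd), a lysosomal protease, rose from duodenum to colon by 0.57 (SE 0.07).

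The insulin receptor substrates are adaptors of both receptors. Irs4 had a mean of 7.59 CPM in the duodenum, 0.433 CPM in the ileum and 0.0909 CPM in the colon (colon minus duodenum -6.26, SE 0.49, edgeR adjusted p = 9.65e-16). It had 1101 counts over the duodenum, 43 over the ileum and 11 over the colon. Irs4 passed the filter through the duodenum, so that a difference was to be found for it. Irs2 fell by 1.32 from duodenum to ileum (SE 0.10, edgeR adjusted p = 1.34e-14), from a mean of 123 to 49.6 CPM. Irs1 instead rose by 0.56 in the ileum (SE 0.15) and then fell by 1.76 in the colon (SE 0.16, edgeR adjusted p = 3.36e-13). Socs3, an inhibitor of cytokine and insulin receptors, fell from ileum to colon (-1.66, SE 0.20, edgeR adjusted p = 1.75e-09). The orphan receptor Insrr, related to Insr, fell by 4.16 from duodenum to ileum (SE 0.31) and stood 5.04 higher in the colon than in the ileum (SE 0.31). Further along, the kinase subunit Pik3ca was higher in the colon than in the duodenum by 0.54 (SE 0.08) and than in the ileum by 0.74 (SE 0.08), the transcription factor Foxo3 than in the duodenum by 0.57 (SE 0.08), and the RNA-binding Igf2bp2 rose by 0.39 from duodenum to ileum (SE 0.11). With the i5 index as a covariate the last value was 0.11 (edgeR adjusted p = 0.827), and from duodenum to colon Foxo3 was 0.23 (edgeR adjusted p = 0.344) and Pik3ca 0.31 (edgeR adjusted p = 0.188), so that these 3 calls were lost.

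In the surgery comparisons 1 gene of the pathway list was called. Socs3 was higher in the ileum of VSG mice than of S_wm mice by 1.59 on the log2 scale (SE 0.33, edgeR adjusted p = 0.0473), in a comparison in which 0.0463% of all genes were called. The VSG ileum libraries ranged from 34.4 to 131 CPM with a median of 59.3, and the S_wm libraries from 15.1 to 28.4 CPM, so the groups did not overlap, whereas the S_al ileum libraries reached 42.6 CPM. The edgeR adjusted p was 0.339 without VSG mouse 22, with a difference of 1.28, and the call was lost in 11 of the 17 fits that left out 1 mouse. The test of whether the surgery effect differed between regions gave an edgeR adjusted p of 1 for Socs3 (unadjusted 0.0478).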

How the data were processed

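RNA-seq was made from sorted cells with a stranded total RNA kit from 2 ng of RNA and read as 50-base single ends. The authors deposited raw counts per Ensembl gene, aligned with STAR 2.5.1 to GRCm38. The strand setting of the counting is not given in the sources used here. Groups came from the condition and tissue labels and mice from the sample descriptions, and the replicates are separate mice. Of 53465 genes, 53360 were matched to GENCODE M21. The members and lists were chosen with earlier results of these data known. Pathway genes named are up to 3 called genes of lowest p per direction in each region comparison and any called between surgery groups, and the 5 genes most like Pappa were taken among tested genes with a mean of at least 5 CPM.

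Genes were filtered with filterByExpr, which left 15126, and tested with edgeR 4.0.16 (R 4.3.3, TMM, 9 groups, quasi-likelihood, Benjamini-Hochberg over all tested genes, threshold 0.05). The fit was checked on simulated counts. Alternatives used DESeq2 1.42.0, limma 3.58.1 voom, other filters and size factors, the i5 index, a mouse block and leaving out each mouse.

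The same mouse number across regions is the same animal, so regions are paired by design. Group means were subtracted and libraries of 1 mouse correlated, with a median over 46 pairs of 0.111 (-0.0704 to 0.391), with 25 over 0.1. Surgery groups hold different mice. The main edgeR fit has no term for the mouse, so its region tests do not use the pairing of regions within a mouse. CPM are TMM-scaled. Correlations between log2 CPM share libraries and mice.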

Additional observations from a re-analysis of the deposited data

Results flagged for a closer look

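In 63 groups of 5 or 6 libraries, 4 had a single library far from the rest by Dixon's criterion, which chance gives in about 1 of 20 groups. Pappa2 in the VSG duodenum was 204 CPM in mouse 22, with the nearest library at 117 CPM. Stc2 in the S_al ileum was 1.55 CPM (7 counts) in mouse 32, with the other 4 libraries at 0. Igfbp3 in the S_wm ileum was 16.2 CPM in mouse 27, with the nearest at 5.12 CPM. Igfbp4 in the VSG duodenum was 89.6 CPM in mouse 18, with the nearest at 61.6 CPM.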

How the results depend on the processing

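With the i5 index as a covariate 3 members were called from duodenum to colon in place of 7. Across all other settings the members called stayed within 1.5 times. Signs turned with the index for Stc2 (0.40) and Igfbp3 (0.69) from duodenum to ileum, Pappa (0.18) and Pappa2 (-0.12) from ileum to colon, and Igf1r between VSG and S_al (-0.028). Differences near 0 also turned for Igfbp3 from duodenum to ileum with a stricter filter (0.005) or with mouse 12 reduced to its duodenum library (0.045), and for Pappa from ileum to colon with DESeq2 or its size factors (0.014), the stricter filter (0.001) or no duodenum library of mouse 27 (0.013). The cause was not tested. Leaving out 1 mouse moved these to -0.265 to 0.125 and -0.076 to 0.059. It moved Igf1r to -0.040 to 0.142 (VSG minus S_al) and -0.096 to 0.018 (VSG minus S_wm), Igfbp3 to -0.254 to 0.094 and Pappa to -0.007 to 0.265 (VSG minus S_wm), and Pappa2 from ileum to colon to -0.004 to 0.200. With the mouse as a fixed replicate block Pappa from duodenum to ileum (0.355) and Pappa2 from duodenum to colon (0.486) passed the threshold. With no filter Pappa from duodenum to colon did not (edgeR adjusted p = 0.102). With mouse as random block in limma voom, Igf2 from duodenum to colon did not (1.08, adjusted p = 0.0818). The block changed no other call of a member. Depth limits Stc1, Igfbp5 and Igf2.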
